A study of Mus musculus with 24 samples.

Results

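TTP-/- and WT bone marrow-derived dendritic cells (BMDCs) were compared after 6 h of lipopolysaccharide (LPS), across all genes measured. The comparison rests on 6 of the 24 RNA-Seq libraries of the study, 3 from TTP-/- cells and 3 from WT cells, chosen by the genotype and time in their labels. All mice were C57BL/6 and 9 to 12 weeks old, the marrow cells of both genotypes were grown with GM-CSF, the growth factor that turns marrow cells into dendritic cells in culture, and both groups received 10 ng/ml LPS. The TTP-/- mice lack TTP in all cells of the body, so that the marrow from which the cultures were started lacked it as well, and the knockout was not limited to dendritic cells. The study calls the libraries biological triplicates without stating if equal replicate numbers mean a shared animal or day, and the p-values below measure the spread between these cultures.

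Tristetraprolin (TTP), encoded by *Zfp36*, is an RNA-binding protein that recognizes AU-rich elements in the 3' untranslated region (3' UTR) of mRNAs and recruits the deadenylase complex that starts their decay. LPS, a component of the outer membrane of Gram-negative bacteria, is sensed by TLR4 and triggers cytokine, chemokine and interferon genes, many of whose mRNAs carry such elements. Dendritic cells answer this signal by presenting antigen on MHC class II, by displaying costimulatory ligands to T cells and by secreting cytokines.

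The targeted gene *Zfp36* (ENSMUSG00000044786) is found at chr7:28376784-28380253 of the mouse genome GRCm38, minus strand. Its level was 157, 199.6 and 204 FPKM in the WT cultures against 127, 123 and 143 FPKM in the TTP-/- cultures. FPKM are reads per kilobase of gene, scaled by a factor for each library, and in the deposited values this factor did not follow the total of recovered reads. The deposited values were divided by the whole span of each gene, introns included. Levels are therefore not ranked between genes, and a sum over genes depends on their spans. The TTP-/- values all lay below the WT values, but the difference did not pass the threshold (limma log2 fold change −0.50, SE 0.15, adjusted p = 0.0589). It passed with the replicate number as a block (adjusted p = 0.0227, limma) and without WT replicate 1 (log2 fold change −0.62). The value counts all reads over the gene, so that transcripts of a disrupted allele are included, and the part of the gene that the allele lacks was not analysed here.

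Reads recovered from FPKM numbered 20426876 to 23920297 per library. WT replicate 1 stood somewhat apart, with a correlation of 0.968 and 0.966 to the other WT libraries, which correlated at 0.985 with each other, and the TTP-/- libraries correlated at 0.98 to 0.988 over the genes tested. The share of reads from mitochondrial genes was 4.89 to 6.72% in WT and 5.78 to 8.14% in TTP-/- libraries, and that of *Gm42418*, a locus overlapping ribosomal RNA sequence, was 4.84 to 6.40% and 4.28 to 4.997%. Libraries whose omission ended the call of a named gene are given with it, as are moves in the count of a list by 2 or more genes that also exceed 1.5 times.

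Of 7779 genes that averaged at least 0.5 FPKM over the 6 libraries, 772 were higher in TTP-/- cells, which is 9.92% of those tested, and 547 were lower, 7.03% (limma on log2(FPKM + 0.1), Benjamini-Hochberg adjusted p of at most 0.05). The increases were larger than the decreases. Among the higher genes the median log2 fold change was 1.25 and 176 rose by at least 2 on this scale, whereas among the lower genes the median was −0.68 and 3 fell as far. The 3 TTP-/- values lay above all WT values in 1277 genes (16.4%) and below them in 1613 (20.7%). The median over all genes tested was −0.07, and it became 0.06 when the values were rescaled to TPM, which gave 955 higher and 282 lower genes (77.2% higher, against 58.5% as deposited). A fit with the replicate number as a block called 1128 genes higher (14.5%) and 1263 lower (16.2%). The number of lower genes was 1046 without WT replicate 1, 319 without WT replicate 2, 302 without WT replicate 3, and 257, 194 and 222 without TTP-/- replicates 1, 2 and 3. Of the 772 higher genes, 536 kept their call with each of the 6 libraries left out, as did 165 of the 547 lower genes.

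**Figure D1:**
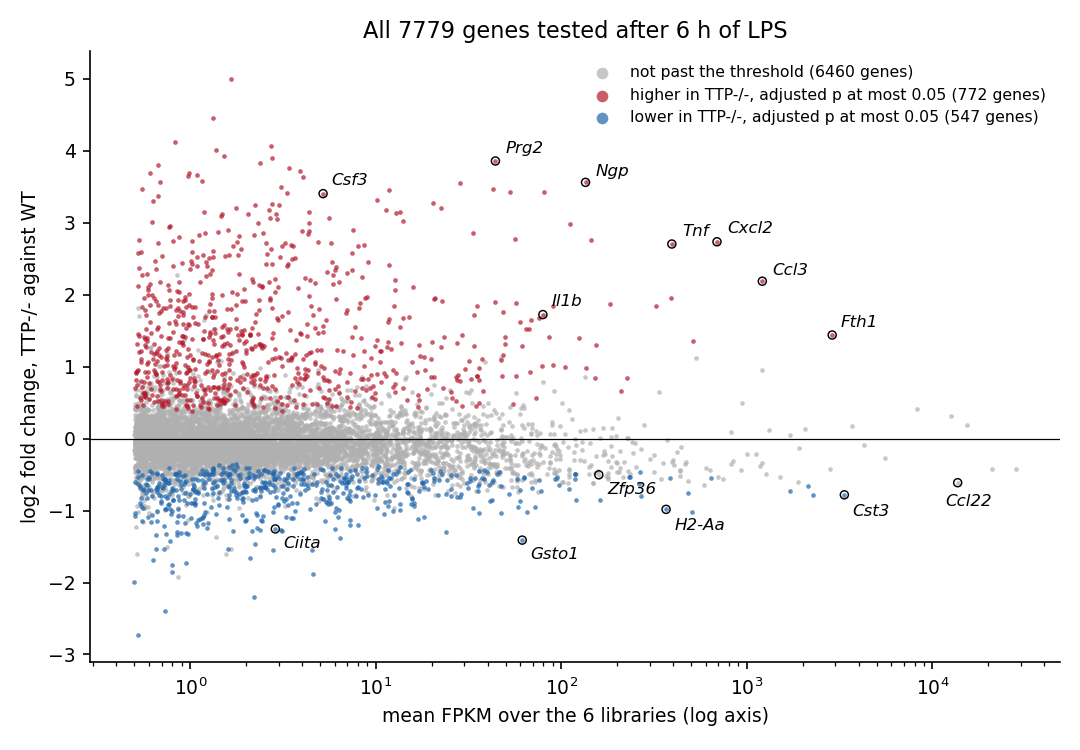
Log2 fold change between TTP-/- and WT cells after 6 h of LPS against the mean FPKM of each of the 7779 genes tested (log axis), 1 point per gene. Genes higher in TTP-/- cells reached log2 fold changes of over 3 (53 genes), and few of the lower genes passed −2 (3 genes). Gene names mark 14 genes described in the text.

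The cultures were first checked against markers of dendritic cells and of the other cells that bone marrow can give rise to. All 8 defining dendritic cell markers were detected in every library. *Itgax*, which encodes CD11c, had 3.36, 3.83 and 3.91 FPKM in WT against 5.69, 5.53 and 7.16 FPKM in TTP-/- cells, without overlap (limma log2 fold change 0.71, SE 0.14, adjusted p = 0.0129). *Flt3*, the receptor for a dendritic cell growth factor, was higher as well (log2 fold change 0.48), a call lost with any library except WT replicate 1 left out (0.46 to 0.52). *Irf4* (−1.03) and *Zbtb46* (−0.66), a pair of transcription factors of conventional dendritic cells, were lower. Of 18 dendritic cell genes tested from a list of 30, 5 were higher and 4 lower, beside 9.92% higher and 7.03% lower of all genes tested, and 7 were lower without WT replicate 1.

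Genes of granulocytes were higher in TTP-/- cells. Lists of neutrophil granule genes, mature neutrophil genes and eosinophil, basophil and mast cell genes held 75 genes, of which 53 reached the filter, 49 were higher, beside 9.92% of all genes tested, and none was lower, and the 49 calls held with each library left out. The filter used the mean of all 6 libraries, which a gene low in WT cells passes only when it is high in TTP-/- cells. Of the 32 members that reached 0.5 FPKM in the mean of the WT libraries alone, 28 were higher, beside 552 of all 7444 such genes (7.42%), and the same count is given below where it differs by 2 or more from the number of higher genes. *Ngp*, a granule protein of neutrophil precursors, had 16.1, 21.8 and 25.7 FPKM in WT against 231, 229 and 286 FPKM in TTP-/- cells (limma log2 fold change 3.56, SE 0.20, adjusted p = 5.68e-05). The calprotectin subunit *S100a8* had 21.2, 9.23 and 12.3 FPKM and 165, 135 and 141 FPKM (limma log2 fold change 3.44, SE 0.29, adjusted p = 0.000244). In both genes every TTP-/- library lay far above every WT library, and *S100a9*, which encodes the partner subunit, moved by 3.48. *Prg2*, the major basic protein of eosinophil granules, had the largest rise of the genes averaging at least 5 FPKM, from 4.94, 5.08 and 6.77 FPKM to 67.6, 86.6 and 93.5 FPKM (limma log2 fold change 3.86, SE 0.18, adjusted p = 3.57e-05). The eosinophil ribonuclease *Ear2* (3.44), the lipoxygenase *Alox15* (3.46), the eosinophil peroxidase *Epx* (3.84) and the basophil protease *Mcpt8* (3.15) rose with it. *Ear2* has close paralogs, and the reads may be split between them.

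Summed over every listed gene, tested or not, the 22 neutrophil granule genes reached 58.6 to 72.6 FPKM in WT and 520 to 611 FPKM in TTP-/- libraries. For the 27 mature neutrophil genes the sums were 149.7 to 174 and 452 to 503 FPKM, and for the 26 measured eosinophil, basophil and mast cell genes 32.5 to 42.1 and 317 to 364 FPKM. No member of these lists was at 0 in all 6 libraries, and the sums were above 0 in WT libraries as well. In the list of B cells the immunoglobulin genes were higher (*Igkc* 3.56, *Ighm* 3.32), whereas *Blnk*, an adaptor of the B cell receptor, was lower (−0.89). None of the 12 genes of stromal and endothelial cells reached the filter. Their sums were 0.474 to 0.641 FPKM in WT and 0.7425 to 0.839 FPKM in TTP-/- libraries, without overlap. RNA from whole cultures does not tell more cells of a type from more RNA per cell. The part of these cells in the differences described below was not tested.

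**Figure D2:**
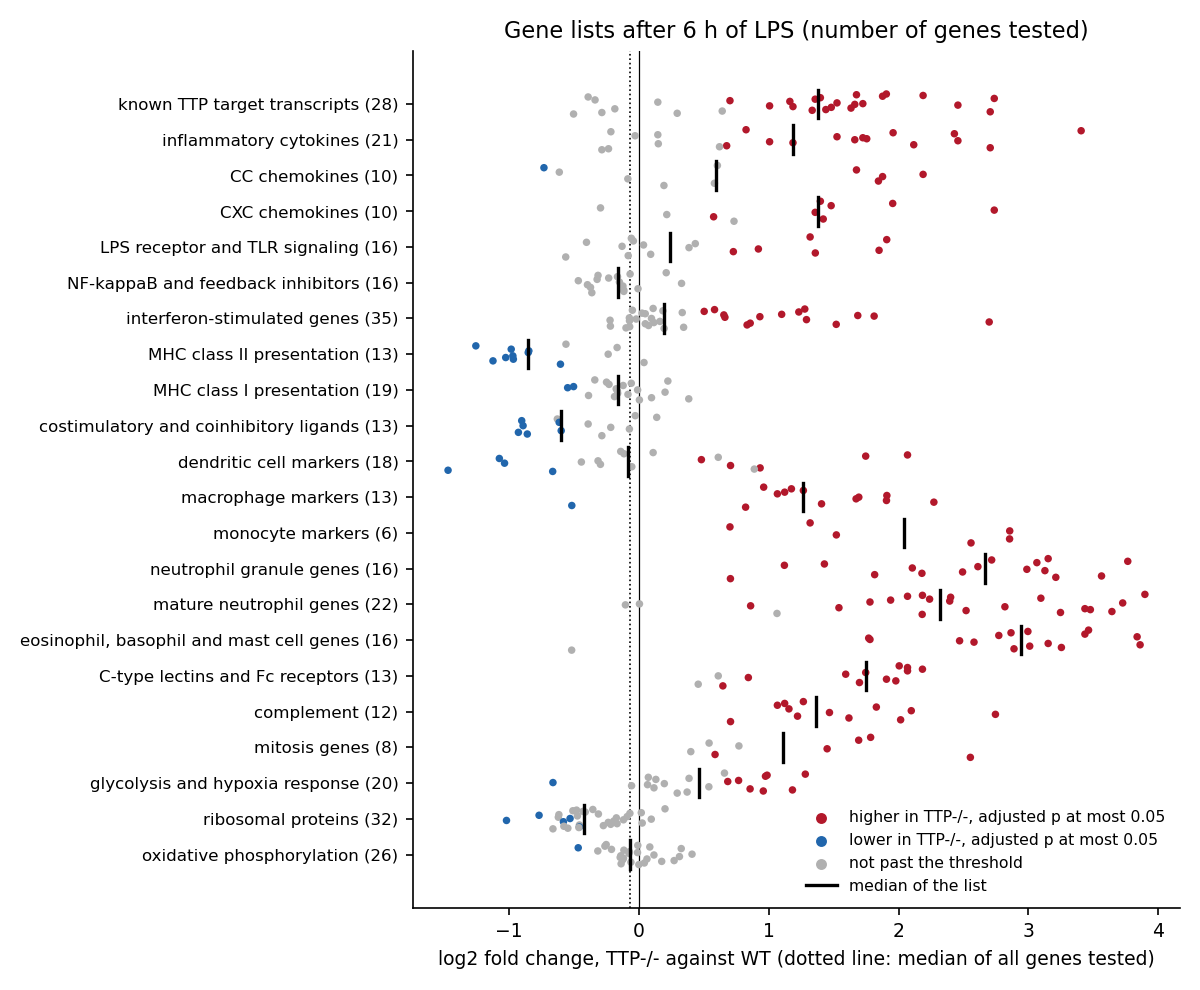
Log2 fold change of each gene tested in 22 of the gene lists, 1 point per gene, with the number of genes tested in brackets and a bar at the median of each list. The 3 granulocyte lists have medians of 2.32 to 2.94, MHC class II genes a median of −0.85, and NF-kappaB genes a median of −0.16, beside −0.07 over all genes tested.

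Inflammatory cytokine mRNAs were higher in TTP-/- cells in 14 of 21 genes tested, beside 9.92% of all genes tested, and none was lower (2 were without WT replicate 1). The median log2 fold change of the list was 1.19, beside −0.07 over all genes tested. *Tnf*, the cytokine with the best known AU-rich element, had 91.0, 109 and 111 FPKM in WT against 595, 601 and 856 FPKM in TTP-/- cells. TTP-/- replicate 3 was the highest, and the other TTP-/- libraries also lay far above every WT library (limma log2 fold change 2.71, SE 0.18, adjusted p = 8.86e-05). *Csf3*, which encodes the granulocyte growth factor G-CSF, was close to absent in WT cells with 0.690, 0.939 and 0.808 FPKM and reached 8.09, 10.2 and 10.4 FPKM in TTP-/- cells (limma log2 fold change 3.41, SE 0.15, adjusted p = 3.49e-05). *Il1b*, the precursor of secreted IL-1β, had 40.9, 30.3 and 38.5 FPKM in WT against 109.6, 102 and 155 FPKM in TTP-/- cells. Here too TTP-/- replicate 3 was the highest of the non-overlapping values (limma log2 fold change 1.73, SE 0.20, adjusted p = 0.0012). *Il1a*, which encodes IL-1α, had 42.5, 26.7 and 34.2 FPKM and 95.6, 82.4 and 118 FPKM (limma log2 fold change 1.53, SE 0.21, adjusted p = 0.00263). The natural inhibitor of both, *Il1rn*, the IL-1 receptor antagonist, also rose (22.2, 21.2 and 22.7 FPKM against 71.2, 70.6 and 82.2 FPKM, log2 fold change 1.75).

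Of the subunits of the IL-12 family, p35, p19 and p28 were higher in TTP-/- cells, and p40 and EBI3 did not pass the threshold. *Il12a*, the p35 subunit of IL-12, rose from 0.815, 0.640 and 0.933 FPKM to 4.23, 4.19 and 5.78 FPKM (limma log2 fold change 2.43, SE 0.18, adjusted p = 0.000139). *Il23a*, the p19 subunit of IL-23, rose from 4.72, 6.79 and 5.33 FPKM to 16.5, 17.4 and 19.7 FPKM (log2 fold change 1.66) and *Il27*, the p28 subunit of IL-27, from 1.93, 2.84 and 3.57 FPKM to 13.3, 14.7 and 18.1 FPKM (log2 fold change 2.46). *Il12b*, the p40 subunit that IL-12 and IL-23 share, had 208, 167 and 161 FPKM and 213, 190.1 and 188 FPKM with overlapping groups (limma log2 fold change 0.15, SE 0.14, adjusted p = 0.545). *Ebi3*, the partner of p28 in IL-27, had overlapping groups (log2 fold change −0.22, adjusted p = 0.548, limma) and passed the threshold without WT replicate 1 (−0.46).

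*Il6* had 72.7, 42.5 and 43.6 FPKM in WT against 119, 98.2 and 93.5 FPKM in TTP-/- cells, with WT replicate 1 well above the other WT libraries (limma log2 fold change 1.01, SE 0.23, adjusted p = 0.0246). Its call held without WT replicate 1 and was lost with each of the other 5 libraries left out, at log2 fold changes of 0.87 to 1.08. *Lif*, a relative of IL-6, rose by 1.19 and *Ifnb1*, the type I interferon of the LPS response, by 1.96, with FPKM of 0.294, 0.631 and 0.561 in WT and 2.07, 2.13 and 2.21 in TTP-/- cells. *Ifnb1* passed the filter through the TTP-/- libraries. *Tnfsf9*, the ligand of 4-1BB (57.5, 80.4 and 73.0 FPKM against 59.5, 61.6 and 50.9 FPKM), and *Il15*, a growth factor of NK cells (log2 fold change −0.03), did not pass the threshold, except *Tnfsf9* without WT replicate 1 (log2 fold change −0.42).

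Chemokine mRNAs were higher in TTP-/- cells in 7 of 10 CXC and 4 of 10 CC chemokines tested, and 1 CC chemokine was lower, beside 9.92% higher and 7.03% lower of all genes tested. *Cxcl2*, a ligand of the neutrophil receptor CXCR2, had 146, 189.7 and 204 FPKM in WT against 1050, 1117 and 1430 FPKM in TTP-/- cells, again with the highest value in TTP-/- replicate 3 (limma log2 fold change 2.74, SE 0.18, adjusted p = 9.07e-05). Its relatives *Cxcl1* (61.5, 72.4 and 71.4 FPKM against 163, 187 and 192 FPKM) and *Cxcl3* (227, 322 and 315 FPKM against 625, 675 and 921 FPKM) rose by 1.40 and 1.36 on the log2 scale, whereas *Cxcl5* (0.22) and *Ppbp* (0.73), which bind the same receptor, did not pass the threshold, except *Ppbp* after rescaling to TPM (0.87) and without WT replicate 1 (0.89). *Ccl3*, a ligand of the monocyte receptor CCR1, had 437, 421 and 444 FPKM in WT against 1913, 1807 and 2239 FPKM in TTP-/- cells (limma log2 fold change 2.19, SE 0.13, adjusted p = 6.99e-05). *Ccl4*, its neighbour in the chemokine cluster of chromosome 11, rose by 1.88, *Ccl2*, which attracts monocytes through CCR2, by 1.68 and *Ccl6* by 1.84. *Ccl7* (0.58) and *Ccl12* (0.60), further ligands of CCR2, did not pass the threshold unless WT replicate 1 was left out (0.97 and 0.91) or, for *Ccl12*, with the replicate number as a block (adjusted p = 0.0212, limma). The interferon-induced *Cxcl10*, a ligand of CXCR3 on T cells, had narrow groups of 173, 148 and 159.5 FPKM and 633, 616 and 611 FPKM (limma log2 fold change 1.96, SE 0.12, adjusted p = 7.02e-05).

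*Ccl17*, a ligand of CCR4 on T cells and a product of mature dendritic cells, was the 1 chemokine that fell, from 2579, 1683 and 2164 FPKM to 1351, 1146 and 1328 FPKM (limma log2 fold change −0.73, SE 0.18, adjusted p = 0.0339). The call was lost with WT replicate 3 or any of the TTP-/- libraries left out (log2 fold changes −0.77 to −0.66) and after rescaling to TPM (−0.60). *Ccl22*, which binds the same receptor, had 12710, 19740 and 17420 FPKM and 11050, 11130 and 9947 FPKM, also without overlap (limma log2 fold change −0.61, SE 0.19, adjusted p = 0.066). It passed the threshold with the replicate number as a block (adjusted p = 0.0366, limma) and without WT replicate 1 (log2 fold change −0.79). *Ccl5*, which attracts T cells, had overlapping groups (log2 fold change −0.08).

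**Figure D3:**
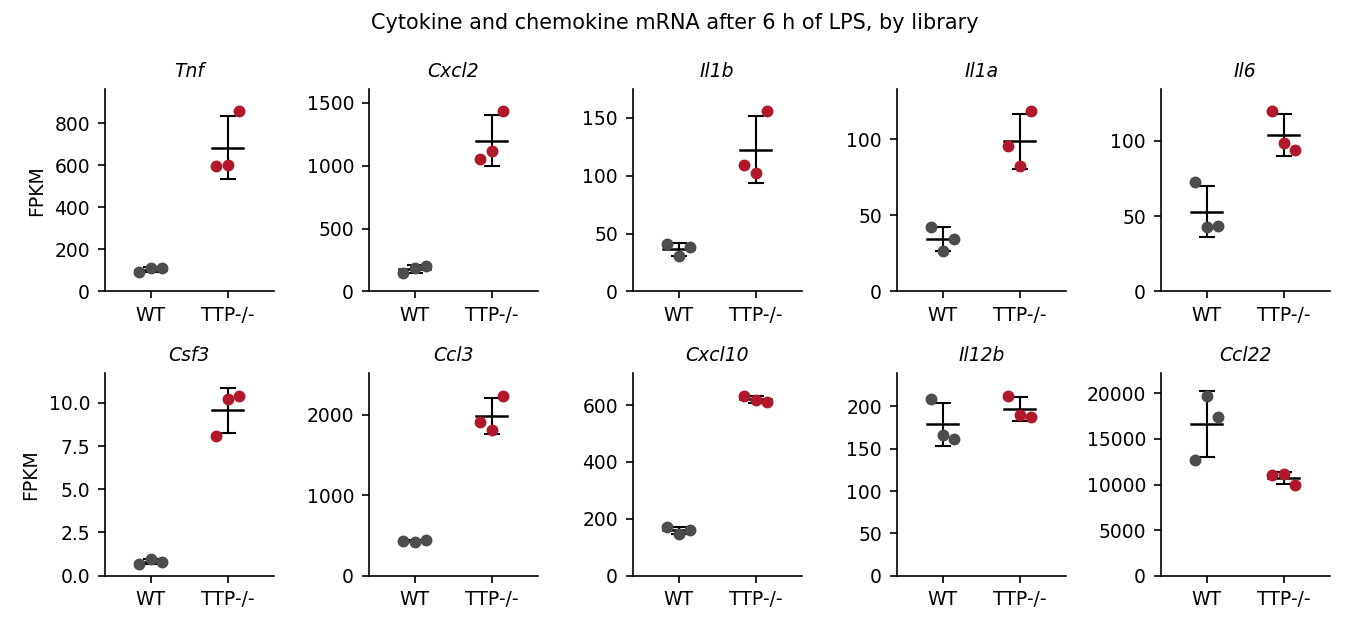
FPKM of 10 cytokine and chemokine genes in the 3 WT (grey) and 3 TTP-/- (red) libraries after 6 h of LPS, 1 point per library, with the mean and SD. The 10 genes were picked by name. The groups do not overlap in 9 of them, among them *Tnf* with 91 to 111 FPKM in WT and 595 to 856 FPKM in TTP-/- cells. Over all genes tested, TTP-/- values lay above all WT values in 16.4% and below them in 20.7%. In *Il12b* they overlap, and *Ccl22* is lower in TTP-/- cells.

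The sequence that TTP is known to prefer is UAUUUAU, which in DNA letters is TATTTAT, and its copies were counted in the longest annotated 3' UTR of each gene, on the strand of the mRNA and with overlapping copies counted. Of 25 cytokine and chemokine genes that were higher, 17 held at least 1 copy (68%), and 10 held 3 or more (40%). Of the 16 tested that were not higher, 6 held a copy (37.5%) and 1 held 3 or more, *Lta*, the gene of lymphotoxin alpha (log2 fold change 0.15). Over all 6376 genes tested with an annotated 3' UTR, 27.5% held a copy and 3.51% held 3 or more. The stretches of 30 bases below, from the mRNA strand of GENCODE release M21 transcripts (GRCm38), hold the densest run of copies in genes that differ in their change, and capitals mark every copy of TATTTAT.
Tnf (chr17:35199678-35199707, minus strand): tTATTTATTATTTATTTATTATTTATTTAT
Cxcl2 (chr5:90905325-90905354, plus strand): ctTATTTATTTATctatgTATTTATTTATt
Cxcl1 (chr5:90892606-90892635, plus strand): gtccTATTTATTTATgTATTTATTTATtcc
Il12a (chr3:68698436-68698465, plus strand): cTATTTATATTTATTTATtttcTATTTATt
Il27 (chr7:126589087-126589116, minus strand): gaTATTTATttcttggaTATTTATTTATtt
Il1b (chr2:129364802-129364831, minus strand): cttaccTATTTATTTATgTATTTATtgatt
Il1a (chr2:129300103-129300132, minus strand): tctatgTATTTATaaataTATTTATgataa
Csf3 (chr11:98702988-98703017, plus strand): gttTATTTATctctatttaaTATTTATgca
Ccl3 (chr11:83648003-83648032, minus strand): tgtatttgtgacTATTTATtctgaaagact
Il6 (chr5:30019727-30019756, plus strand): atttatgattgaTATTTATtatttttatga
Lta (chr17:35203394-35203423, minus strand): aaagttaagtTATTTATTTATagagaatag
Il12b (chr11:44413477-44413506, plus strand): aagtaatttatgTATTTATtaatttatttc
Zfp36 (chr7:28376958-28376987, minus strand): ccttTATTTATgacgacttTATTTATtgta

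*Tnf* had 8 copies in its 3' UTR, 5 of them in the stretch shown, and *Cxcl2* had 7, and these genes rose by 2.71 and 2.74 on the log2 scale. *Cxcl1* with 6 copies and *Lif* with 5 rose by 1.40 and 1.19, while *Csf3* with 2 copies had the largest rise of the cytokines and chemokines. *Ccl3*, *Il6* and *Il12b* held 1 copy each, with log2 fold changes of 2.19, 1.01 and 0.15. *Cxcl10*, *Il1rn*, *Ccl2*, *Ccl6* and *Ltb* rose with no copy in their 3' UTR. A copy of the motif is a match of letters in the annotated 3' UTR, and binding was not measured in these libraries. In the 3 granulocyte lists 8.16% of the 49 higher genes held a copy. The median 3' UTR of these genes was 294 bases. Of all genes tested with a 3' UTR of 1 to 500 bases, 6.96% held a copy.

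**Figure D4:**
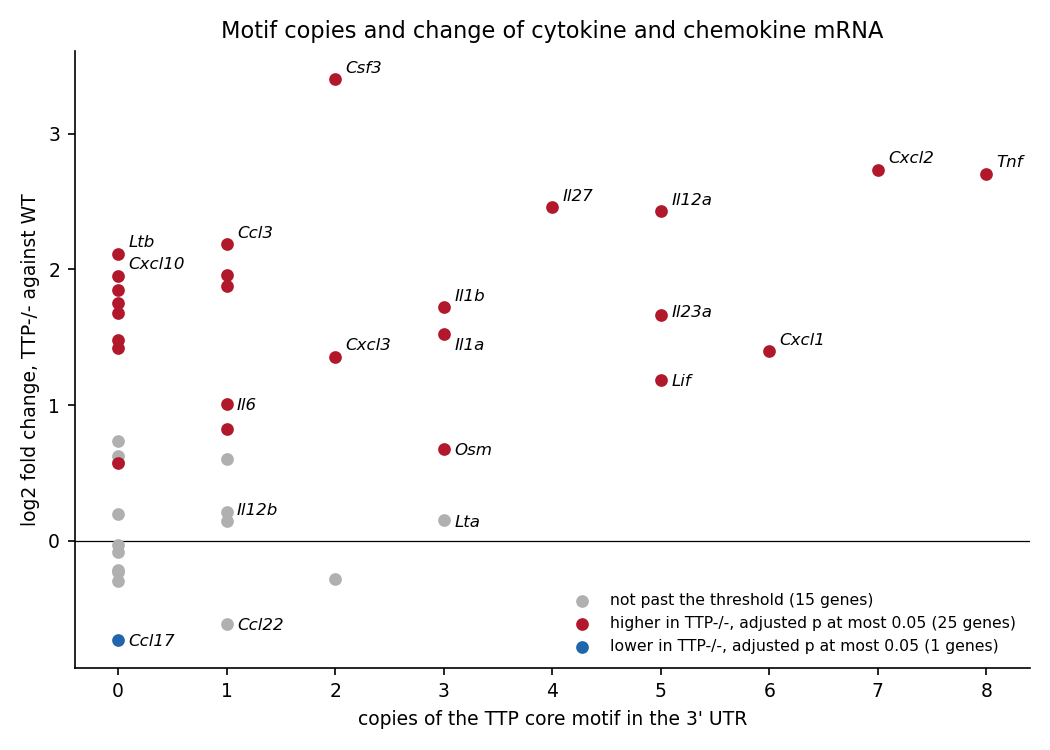
Log2 fold change of the 41 cytokine and chemokine genes tested against the number of copies of TATTTAT in the longest annotated 3' UTR, 1 point per gene. Genes with 3 or more copies were higher in 10 of 11 cases, beside 13.8% of all genes tested with 3 or more, and genes without a copy range from *Ccl17* (−0.73) to *Ltb* (2.12).

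Transcripts known as TTP targets from other cells were higher in 20 of 28 genes tested, beside 9.92% of all genes tested, with a median log2 fold change of 1.38, and none was lower (4 were without WT replicate 1 and 2 with the replicate number as a block). Of the 26 that reached 0.5 FPKM in WT cells alone, 18 were higher. Beside the cytokines and chemokines above, *Ptgs2*, the inducible cyclooxygenase COX-2, rose from 20.3, 15.2 and 11.8 FPKM to 46.6, 38.1 and 33.1 FPKM (limma log2 fold change 1.33, SE 0.22, adjusted p = 0.00669). *Acod1*, which makes itaconate, rose by 1.91, *Ier3*, an immediate-early survival gene, by 1.16, and the transcription factor gene *Myc* by 1.48. *Dusp1*, the phosphatase that switches off p38, had 59.7, 95.3 and 90.0 FPKM and 58.1, 70.1 and 62.4 FPKM and did not pass the threshold (limma log2 fold change −0.34, SE 0.20, adjusted p = 0.304) unless WT replicate 1 was left out (−0.55). *Cd83*, a marker of mature dendritic cells (log2 fold change −0.39), and *Socs3*, an inhibitor of cytokine signalling (0.64), did not pass it either, but did with the replicate number as a block (adjusted p = 0.0267 and 0.0197, limma) and, for *Cd83*, without WT replicate 1 (−0.40). *Zfp36*, with 3 copies of the motif, is itself on this list. The list rests on earlier work in other cells and on knowledge of these data, and is no independent evidence of its direction.

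Among the relatives of TTP and other proteins that bind AU-rich elements, *Zfp36l2*, a paralog with the same zinc fingers, had 3.46, 3.65 and 3.50 FPKM in WT against 11.1, 14.5 and 12.6 FPKM in TTP-/- cells (limma log2 fold change 1.81, SE 0.13, adjusted p = 0.000119). It was the 1 gene of 10 tested in that list to pass the threshold, beside 9.92% higher and 7.03% lower of all genes tested. *Zfp36l1*, the other paralog, had a log2 fold change of −0.28 (adjusted p = 0.408, limma), and *Elavl1*, which encodes the stabilizing protein HuR, −0.13. Of 20 genes of other decay regulators tested, 2 were higher and 2 lower, near the same shares of all genes tested. *Btg2* rose (1.06) and *Tob1* fell (−0.93), a pair of related proteins that bring the CCR4-NOT deadenylase to mRNAs. The calls of *Zc3h12c* and *Btg1* in the same list were lost with 5 and 3 of the 6 libraries left out (log2 fold changes 0.49 to 0.72 and −0.59 to −0.56), the TTP-/- libraries in both genes and also WT replicates 2 and 3 in *Zc3h12c*. *Zc3h12a*, which encodes the endonuclease Regnase-1, did not pass the threshold (log2 fold change −0.19).

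Among signalling genes upstream of these transcripts, none of 16 genes of NF-kappaB and its feedback inhibitors passed the threshold, beside 9.92% higher and 7.03% lower of all genes tested, with *Nfkbia* at 278, 351 and 397 FPKM in WT against 261, 272 and 338 FPKM in TTP-/- cells and *Tnfaip3*, which encodes the inhibitor A20, at a log2 fold change of −0.01. Without WT replicate 1, 1 of the 16 was higher and 5 were lower, and with the replicate number as a block 1 was higher and 3 lower. In the LPS receptor complex, *Cd14* rose from 28.1, 26.7 and 29.2 FPKM to 60.5, 63.3 and 89.4 FPKM (limma log2 fold change 1.32, SE 0.17, adjusted p = 0.00194). *Tlr2*, the receptor of bacterial lipoproteins, rose by 1.85, and the inhibitory kinase *Irak3* by 1.91, whereas the adaptors *Myd88* (0.43) and *Traf6* (−0.56) did not pass the threshold, but did with the replicate number as a block (adjusted p = 0.016 and 0.00609, limma). The other higher members of the 16 tested were *Tlr7* (1.36) and *Tlr3* (0.73), sensors of single-stranded and double-stranded RNA, and *Tlr1* (0.92), the partner of TLR2, and the call of *Tlr3* was lost with WT replicate 2 or 3 or TTP-/- replicate 1 or 2 left out (0.65 to 0.71). Of the 13 members that reached 0.5 FPKM in WT cells alone, 3 were higher, beside 7.42% of all such genes, since *Irak3*, *Tlr7* and *Tlr1* passed the filter through the TTP-/- libraries. *Tlr4* itself did not reach the filter. *Cd14* and *Tlr2* are also expressed by monocytes and neutrophils, whose genes rose in the same libraries.

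Feedback phosphatases of the MAP kinases showed *Dusp6*, specific for ERK, at 0.974, 0.811 and 0.866 FPKM in WT against 5.62, 7.64 and 5.43 FPKM in TTP-/- cells (limma log2 fold change 2.67, SE 0.16, adjusted p = 6.99e-05). *Dusp2* rose by 1.31 and *Dusp7* by 1.21, while *Mapk14*, which encodes p38α, rose by 0.90. With *Dusp14*, which fell by 0.70 unless TTP-/- replicate 2 was left out (−0.68), these were 4 higher genes and 1 lower of 11 tested, beside 9.92% higher and 7.03% lower of all genes tested, and 4 were lower without WT replicate 1. Of the 9 that reached 0.5 FPKM in WT cells alone, 2 were higher, beside 7.42% of all such genes, since *Dusp7* and *Mapk14* passed the filter through the TTP-/- libraries. Of 18 AP-1 and immediate-early genes, 5 were higher, among them *Egr1* (1.63), *Nr4a1* (1.52) and *Batf* (1.22), and with the replicate number as a block 8 were. Of the 13 that reached 0.5 FPKM in WT cells alone, 1 was higher, beside 7.42% of all such genes. *Egr1*, *Nr4a1* and *Batf* passed the filter through the TTP-/- libraries. *Jun* (0.27) and *Junb* (0.21) did not pass the threshold. *Socs1*, an inhibitor of interferon signalling, had 20.3, 45.4 and 58.5 FPKM and 101, 143 and 174 FPKM (limma log2 fold change 1.85, SE 0.40, adjusted p = 0.0196), a call lost without TTP-/- replicate 2 or 3 (log2 fold changes 1.67 to 1.81). *Stat4*, which carries the IL-12 signal, fell by 1.13 on the log2 scale. *Socs2* fell by 0.56, a call lost after rescaling to TPM and with WT replicate 3 or any TTP-/- library left out (−0.61 to −0.53).

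Interferon-stimulated genes were higher in 15 of 35 genes tested and lower in none, beside 9.92% higher and 7.03% lower of all genes tested, with a median log2 fold change of 0.19. *Rsad2*, which encodes the antiviral enzyme viperin, had 39.9, 28.8 and 31.5 FPKM in WT against 99.0, 91.8 and 94.6 FPKM in TTP-/- cells (limma log2 fold change 1.52, SE 0.15, adjusted p = 0.000511). *Oas2*, a sensor of double-stranded RNA, rose by 2.70, *Ifit3* by 1.69, its near copy *Ifit3b* by 1.81, and *Isg20* by 1.29. The reads of *Ifit3* and *Ifit3b* may be split between the copies. *Isg15* had 294, 389.8 and 436 FPKM and 312, 382 and 400.4 FPKM, with overlapping groups, and *Mx1* (−0.22) and *Oasl2* (0.05) did not pass the threshold. Between 10 and 17 genes of the list were higher with 1 library left out, 10 of them without TTP-/- replicate 2.

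MHC class II genes were lower in TTP-/- cells. Of 13 genes of the class II pathway, 9 were lower and none was higher, beside 7.03% of all genes tested, with a median log2 fold change of −0.85. *H2-Aa*, the alpha chain of I-A, had 449, 490.5 and 522 FPKM in WT against 237, 241 and 261 FPKM in TTP-/- cells (limma log2 fold change −0.98, SE 0.12, adjusted p = 0.00155). *H2-Eb1*, the beta chain of I-E, had 72.1, 93.3 and 98.0 FPKM and 39.9, 42.0 and 46.6 FPKM (limma log2 fold change −1.02, SE 0.15, adjusted p = 0.00395). In both genes the highest TTP-/- library lay well below the lowest WT library. *Ciita*, the transactivator that switches on the class II genes, had 3.17, 4.53 and 4.60 FPKM and 1.49, 1.57 and 1.87 FPKM (limma log2 fold change −1.25, SE 0.17, adjusted p = 0.00261). *H2-Oa* and *H2-DMb2*, subunits of the H2-O and H2-M molecules that control peptide loading, fell by 1.12 and 0.97 on the log2 scale. *Cd74*, the invariant chain, had 648, 1052 and 983 FPKM and 556, 599 and 626 FPKM, without overlap and with WT replicate 1 the lowest of the WT libraries (limma log2 fold change −0.56, SE 0.20, adjusted p = 0.107). It passed the threshold with the block (adjusted p = 0.034, limma) and without WT replicate 1 (log2 fold change −0.78). With 1 library left out, 7 to 10 of the 13 were lower, and 8 were after rescaling to TPM.

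Of 19 MHC class I genes none was higher and 2 were lower (10.5%), beside 9.92% higher and 7.03% lower of all genes tested. *H2-K1* (156, 182 and 203 FPKM against 138, 157 and 165 FPKM), *H2-D1* (log2 fold change −0.06) and the peptide transporter *Tap1* (0.10) did not pass the threshold, and the 2 calls, both in near-identical *H2-Q* genes, were lost after rescaling to TPM and with any library except WT replicate 1 left out. Costimulatory ligands were lower in 6 of 13 genes tested (46.2%, beside the same 7.03%) and higher in none. *Cd86*, the ligand of CD28, had 25.7, 18.2 and 19.2 FPKM in WT against 12.7, 10.7 and 10.2 FPKM in TTP-/- cells (limma log2 fold change −0.89, SE 0.17, adjusted p = 0.0111), and *Cd70*, the ligand of CD27, 17.9, 20.1 and 22.4 FPKM and 10.3, 9.68 and 12.2 FPKM (limma log2 fold change −0.90, SE 0.14, adjusted p = 0.00491). *Cd80* (−0.61), *Tnfsf4*, the ligand of OX40 (−0.86), *Slamf1* (−0.93) and *Pdcd1lg2*, which encodes PD-L2 (−0.60), also fell. These calls rested on few libraries, since *Cd70* was the 1 gene of the 13 that was lower without TTP-/- replicate 2 or 3, with *Cd86* at −0.86 to −0.83. *Cd80* was also lost with WT replicate 2 or 3 or TTP-/- replicate 1 left out (−0.70 to −0.53) and after rescaling to TPM, and *Tnfsf4* without WT replicate 2 (−0.87 to −0.78 over the libraries that end its call). *Cd40*, the receptor through which T cells activate dendritic cells, had 27.6, 32.2 and 33.0 FPKM and 32.7, 34.3 and 34.8 FPKM, and *Cd274*, which encodes PD-L1, had 73.7, 56.2 and 56.3 FPKM and 67.0, 58.2 and 56.5 FPKM, with log2 fold changes of 0.14 and −0.03.

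Several regulators of the dendritic cell lineage were lower as well. *Irf4* had 50.9, 50.7 and 44.3 FPKM in WT against 25.7, 23.3 and 22.1 FPKM in TTP-/- cells (limma log2 fold change −1.03, SE 0.12, adjusted p = 0.00129). *Spib*, an Ets factor of plasmacytoid dendritic cells and B cells, had 2.88, 3.51 and 3.54 FPKM and 1.29, 1.03 and 1.07 FPKM (limma log2 fold change −1.47, SE 0.14, adjusted p = 0.0004). *Zbtb46* had 2.37, 2.49 and 2.42 FPKM and 1.51, 1.51 and 1.46 FPKM (limma log2 fold change −0.66, SE 0.10, adjusted p = 0.0033). *Irf8* (44.7, 58.5 and 64.0 FPKM against 41.3, 45.2 and 48.5 FPKM), *Batf3* (log2 fold change −0.14), the migration receptor *Ccr7* (−0.11) and the cytoskeletal marker *Fscn1* (−0.31) did not pass the threshold, except *Irf8* (−0.45) and *Fscn1* (−0.61) without WT replicate 1. The falls stood beside the higher granulocyte, monocyte and macrophage genes, and a smaller share of dendritic cells and less of these transcripts per cell cannot be told apart here.

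**Figure D5:**
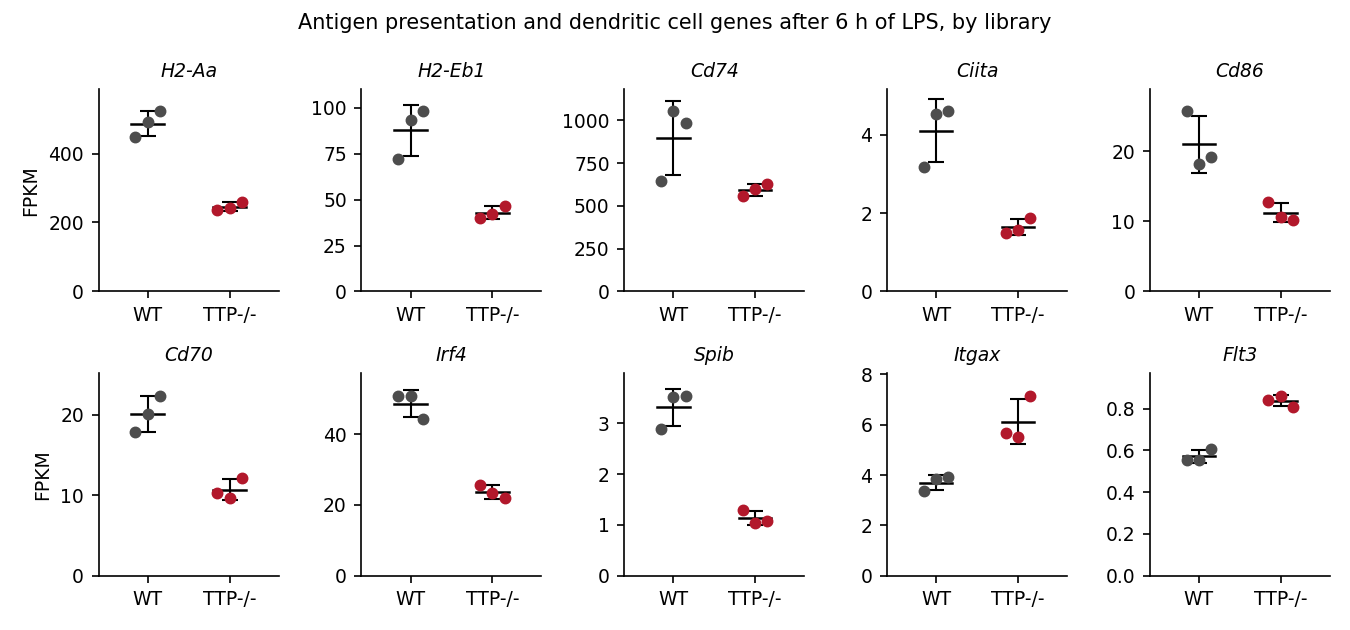
FPKM of 10 genes of antigen presentation, costimulation and the dendritic cell lineage in the 3 WT (grey) and 3 TTP-/- (red) libraries after 6 h of LPS, 1 point per library, with the mean and SD. *H2-Aa* ranges from 449 to 522 FPKM in WT and from 237 to 261 FPKM in TTP-/- cells, whereas *Itgax* and *Flt3* are higher in TTP-/- cells.

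Monocyte and macrophage genes were higher, with 6 of 6 and 12 of 13 genes tested, beside 9.92% of all genes tested, and 1 macrophage gene was lower, a call lost after rescaling to TPM and with any library except WT replicate 1 left out. Of those that reached 0.5 FPKM in WT cells alone, 4 of 4 monocyte genes and 10 of 11 macrophage genes were higher. *Ly6c2*, the surface marker of inflammatory monocytes, had 7.77, 8.07 and 8.06 FPKM in WT against 53.2, 60.1 and 62.1 FPKM in TTP-/- cells (limma log2 fold change 2.86, SE 0.11, adjusted p = 3.23e-05), and it has a close copy that may share its reads. *Cd68*, a lysosomal protein of phagocytes, rose by 1.91, *Csf1r*, the receptor of the macrophage growth factor, by 1.69, and *Gpnmb* by 2.27. *Lyz2*, the lysozyme of myeloid cells, had 59.0, 34.9 and 48.8 FPKM and 118, 112 and 142 FPKM (limma log2 fold change 1.41, SE 0.21, adjusted p = 0.00392). The sums over the lists were 38.7 to 41.0 FPKM in WT and 127 to 163.5 FPKM in TTP-/- libraries for 11 monocyte genes, and 76.1 to 93.3 and 203 to 260.4 FPKM for 23 macrophage genes.

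Genes of the phagocyte surface rose with them. Of 13 C-type lectins and Fc receptors tested, 11 were higher (8 of 10 at 0.5 FPKM in WT cells alone), among them *Clec4d* (2.18) and *Clec4e* (2.07), which sense mycobacterial glycolipids, and the Fc receptors *Fcgr2b* (1.98) and *Fcgr1* (1.91). All 12 complement genes tested were higher (8 of 8 at 0.5 FPKM in WT cells alone), from *Itgax* (0.71), counted here as part of complement receptor 4, to *Cd93* (2.75), and *C3* had 10.2, 11.3 and 10.6 FPKM in WT against 24.6, 25.0 and 22.4 FPKM in TTP-/- cells (limma log2 fold change 1.16, SE 0.11, adjusted p = 0.000455). Chemokine receptors were higher in 6 of 7 genes, led by *Cxcr2* (3.10), the neutrophil receptor for CXCL2, and *Ccr3* (3.00), the eotaxin receptor of eosinophils, both of which also stand in the granulocyte lists. *Ccr1*, a receptor for CCL3, had 3.12, 2.62 and 2.79 FPKM and 13.3, 15.3 and 13.2 FPKM (limma log2 fold change 2.25, SE 0.12, adjusted p = 5.53e-05). The G-CSF receptor *Csf3r* rose by 2.40, together with its ligand. *Cxcr2*, *Csf3r* and *Cd93* passed the filter through the TTP-/- libraries. The integrin chains *Itgam* (2.02), which encodes CD11b, and *Itgb2* (1.76) were among 8 higher genes of 19 tested for adhesion and migration (5 of 16 at 0.5 FPKM in WT cells alone), where none was lower but 3 were without WT replicate 1 and 3 with the replicate number as a block. These groups overlap with the genes of neutrophils, eosinophils and macrophages, whose part in them was not tested. The shares of all genes tested were 9.92% higher and 7.03% lower.

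Acute-phase and antimicrobial proteins, several of which are stored in neutrophil granules, were higher in 12 of 13 genes tested, beside 9.92% of all genes tested. *Saa3*, a serum amyloid protein made by macrophages, had 2.05, 1.72 and 2.63 FPKM in WT against 16.0, 16.9 and 29.1 FPKM in TTP-/- cells, with the highest value in TTP-/- replicate 3 (limma log2 fold change 3.18, SE 0.26, adjusted p = 0.000216). *Lcn2*, which withholds iron from bacteria and is stored in neutrophil granules, rose by 2.99 and *Pglyrp1*, which binds peptidoglycan, by 3.21. Matrix proteases and their inhibitors were higher in 8 of 14, beside the same share, and lower in none (2 without WT replicate 1). Among the higher genes were *Mmp14* (1.97), the receptor for urokinase *Plaur* (2.16) and the matrix protein gene *Thbs1* (1.94), and *Serpinb2*, an inhibitor of urokinase with an AU-rich element of its own, rose by 2.22.

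Lipid mediator genes included *Alox5ap* (0.992, 0.922 and 0.997 FPKM against 6.86, 8.79 and 7.18 FPKM) and *Alox5* (log2 fold change 2.48), which start leukotriene synthesis in granulocytes, and *Ptger4*, a receptor for prostaglandin E, which fell by 0.73, so that of 9 genes of prostaglandins and leukotrienes 7 were higher and 1 lower (2 without WT replicate 1). Of 10 genes of nitric oxide, arginine and itaconate metabolism, 6 were higher, with *Nos2*, the inducible nitric oxide synthase, at 0.277, 0.375 and 0.403 FPKM in WT against 1.22, 1.18 and 1.49 FPKM in TTP-/- cells (limma log2 fold change 1.63, SE 0.16, adjusted p = 0.000546) and the arginine transporter *Slc7a2* at 1.16. *Ch25h*, which makes an antiviral oxysterol, rose by 1.55. Both *Alox5* and *Nos2* passed the filter through the TTP-/- libraries. Glycolysis and hypoxia genes were higher in 8 of 20, such as the lactate exporter *Slc16a3* (1.18), the enolase *Eno1* (0.99) and the glucose transporter *Slc2a1* (0.96). *Ndrg1* fell by 0.66, a call lost without TTP-/- replicate 2 or 3 (−0.67 to −0.64), whereas 1 of 26 oxidative phosphorylation genes passed the threshold (*Cox4i1*, −0.47), a call lost after rescaling to TPM and with any library except WT replicate 1 left out (log2 fold changes −0.49 to −0.42). All these metabolic lists stand beside 9.92% higher and 7.03% lower of all genes tested.

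Of 18 NRF2 targets and antioxidant genes 8 were higher and none was lower, beside 9.92% higher and 7.03% lower of all genes tested, but 2 were lower without WT replicate 1 and 2 with the replicate number as a block. Of 12 genes of the integrated stress response 5 were higher and 1 lower (3 without WT replicate 1 and 2 with the block), beside the same shares. *Hmox1*, the heme oxygenase controlled by NRF2, had 3.40, 3.18 and 3.57 FPKM in WT against 11.1, 11.9 and 15.9 FPKM in TTP-/- cells (limma log2 fold change 1.89, SE 0.16, adjusted p = 0.000228). *Fth1*, the ferritin heavy chain, had 1219, 1660 and 1774 FPKM and 3436, 4127 and 5065 FPKM (limma log2 fold change 1.44, SE 0.21, adjusted p = 0.00318), and it has many processed copies in the genome that can share its reads. *Sod2*, the mitochondrial superoxide dismutase, rose by 1.33 and *Txnip* by 1.85. *Gdf15*, a stress cytokine, rose from 0.0576, 0.108 and 0.0457 FPKM to 1.98, 2.81 and 3.21 FPKM (limma log2 fold change 4.01, SE 0.22, adjusted p = 5.68e-05), where the pseudocount understates the change. *Gdf15* passed the filter through the TTP-/- libraries. *Cebpb*, a transcription factor of granulocytes and macrophages, rose from 2.70, 3.74 and 4.25 FPKM to 14.8, 16.5 and 28.9 FPKM (limma log2 fold change 2.42, SE 0.28, adjusted p = 0.0012). The heat shock genes *Hspa1a* (−1.16) and *Hspa1b* (−1.32), a near-identical pair, fell. Of 21 lysosome genes 10 were higher, beside 9.92% of all genes tested, among them *Ctsd* (1.67), *Psap* (0.97) and the hexosaminidase chain *Hexa* (1.10), and the number was 6 without TTP-/- replicate 2.

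Genes of cell division had low FPKM, which are divided by gene spans with introns, and *Mki67* averaged 1396 reads per library. *Mki67*, a marker of cycling cells, had 1.42, 1.18 and 0.990 FPKM in WT against 3.67, 3.20 and 3.37 FPKM in TTP-/- cells (limma log2 fold change 1.45, SE 0.15, adjusted p = 0.000597), and *Ube2c* (2.55) and *Ccna2* (1.69) rose too. Of 8 mitosis genes tested, 5 were higher, and all 8 with the replicate number as a block, while 17 other genes of the list did not reach the filter. Of the 4 that reached 0.5 FPKM in WT cells alone, 3 were higher. Of 15 DNA replication genes, 3 were higher, led by the ribonucleotide reductase subunit *Rrm2* (1.91), and *Pcna* (0.17) did not pass the threshold. Both lists stand beside 9.92% higher and 7.03% lower of all genes tested. Of the 13 that reached 0.5 FPKM in WT cells alone, 1 was higher, beside 7.42% of all such genes, since *Rrm2* and *Mcm2* passed the filter through the TTP-/- libraries. The DNA replication list had 2 lower genes, 1 without WT replicate 2 or TTP-/- replicate 1, and 0 without WT replicate 3 or TTP-/- replicate 2 or 3. Cytosolic ribosomal protein genes had a median log2 fold change of −0.42 over 32 genes tested, with 5 lower and none higher, beside 7.03% lower of all genes tested, and their many pseudogenes can share reads. *Rpl37*, of the large subunit, had 77.0, 56.9 and 63.2 FPKM and 41.0, 39.3 and 34.7 FPKM (limma log2 fold change −0.77, SE 0.15, adjusted p = 0.0127). The number of lower ribosomal genes was 9 without WT replicate 1, 3 without WT replicate 3, 2, 0 and 1 without TTP-/- replicates 1, 2 and 3, 2 after rescaling to TPM and 15 with the replicate number as a block. The call of *Rpl37* was lost without TTP-/- replicate 2 or 3 (log2 fold changes −0.79 to −0.70).

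The largest falls among genes averaging at least 5 FPKM were those of *Gsto1*, a glutathione transferase of the omega class, with 87.5, 86.5 and 94.1 FPKM in WT against 33.4, 31.4 and 36.0 FPKM in TTP-/- cells (limma log2 fold change −1.41, SE 0.11, adjusted p = 0.000213), and *Rgs10*, a regulator of G protein signalling, with 8.70, 9.13 and 10.0 FPKM and 3.50, 3.46 and 3.50 FPKM (limma log2 fold change −1.39, SE 0.11, adjusted p = 0.000161). The creatine transporter *Slc6a8* (−1.15), the serpin *Serpinb9b* (−1.20) and *Atmin* (−1.05), a zinc finger protein that interacts with the kinase ATM, fell as well. *Cst3*, which encodes the protease inhibitor cystatin C, a transcript abundant in dendritic cells, had 3821, 4319 and 4571 FPKM and 2412, 2585 and 2386 FPKM (limma log2 fold change −0.78, SE 0.13, adjusted p = 0.00597). Without the filter on low genes the adjusted p of *Cst3* passed the threshold no longer. Sterol synthesis genes had a median log2 fold change of −0.37. *Hmgcs1*, which makes the precursor of mevalonate, fell from 4.30, 3.46 and 3.46 FPKM to 2.08, 2.06 and 2.08 FPKM (limma log2 fold change −0.82, SE 0.12, adjusted p = 0.00389), and *Mylip*, the degrader of the LDL receptor that sterols induce, rose by 1.32. Of the 17 genes tested 3 were higher and 4 lower, beside 9.92% higher and 7.03% lower of all genes tested, with 8 lower without WT replicate 1 and 9 with the replicate number as a block, but 2 without WT replicate 2 or TTP-/- replicate 1 or 3, 1 without TTP-/- replicate 2 and 2 after rescaling to TPM.

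Receptors of TNF, IL-6, IL-10 and growth factors were higher in 7 of 19 genes tested and lower in 1 (4 with the replicate number as a block), beside 9.92% higher and 7.03% lower of all genes tested, but 2 were higher without TTP-/- replicate 2. Of the TNF receptors, *Tnfrsf1a* stood at 0.44 and *Tnfrsf1b* at 0.95 on the log2 scale, and the call of *Tnfrsf1b* was lost without TTP-/- replicate 2 or 3 (0.89 to 0.93). *Il6st*, which carries the signal of IL-6 and LIF, passed the threshold with the replicate number as a block (log2 fold change −0.44, adjusted p = 0.0207, limma, against 0.0542 without it), and *Il4ra*, the IL-4 receptor, was lower (−0.64), a call lost after rescaling to TPM and with any library except WT replicate 1 left out (−0.67 to −0.56). *Il1rl1*, the IL-33 receptor of eosinophils and mast cells, rose from 0.140, 0.119 and 0.137 FPKM to 0.970, 1.15 and 1.01 FPKM (limma log2 fold change 2.30, SE 0.14, adjusted p = 6.99e-05). *Il1rl1* passed the filter through the TTP-/- libraries. The inflammasome genes *Nlrp3* (0.24) and *Casp1* (0.44), which process the IL-1β precursor, did not pass the threshold, *Casp1* passing it with the block (adjusted p = 0.0419, limma) and without WT replicate 1 (0.67). Of 25 genes of cell death and survival, 5 were higher (20%, beside 9.92% of all genes tested), among them the necroptosis kinase *Ripk3* (1.11) and the BH3 protein *Bcl2l11* (0.81), and the number was 3 without TTP-/- replicate 2 or 3. Among the 24 that reached 0.5 FPKM in WT cells alone, 4 were higher, beside 7.42% of all such genes. *Ripk3* passed the filter through the TTP-/- libraries.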

How the data were processed

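Polyadenylated RNA of WT and TTP-/- BMDCs was sequenced from stranded, single-end libraries. The authors trimmed reads with cutadapt, aligned them to GRCm38 with STAR 2.5, tested them with DESeq2 and deposited FPKM, 1 table per time. The 6 h table also holds the authors' fold changes and p-values, which were not used. The deposited FPKM had been divided by the gene span with introns, at the annotated length in 78.8% of genes, and reads came out whole (within 0.05) for 20815 of 20816 identifiers.

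FPKM are not counts, and log2(FPKM + 0.1) was tested with limma 3.58.1 in R 4.3.3 (empirical Bayes with trend, 3 against 3 libraries) in genes averaging at least 0.5 FPKM over the 6 libraries. Fold changes are on this scale, which understates the change of low genes. The procedure was also run on simulated reads, drawn independently for each library, and the outcome is not reported here. The simulated libraries held no deviation shared by replicate number and no library standing apart. That run therefore does not bear on either. An exact permutation of 3 against 3 libraries reaches no p below 0.1 (two-sided).

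The named genes were *Zfp36*, the 12 largest rises and falls without overlap among genes averaging at least 5 FPKM, the 10 largest FPKM differences in each direction, up to 5 called members of each list (stable calls first) and the cytokines the study names. *C3*, *Flt3*, *Ifnb1*, *Il1rn*, *Il23a*, *Itgax*, *Lcn2*, *Lif*, *Lyz2*, *Mcpt8*, *Myc*, *Ndrg1*, *Pdcd1lg2*, *Ptger4*, *Tlr3* and *Zbtb46* were called genes outside this rule, chosen after their values were seen or, for the dendritic cell markers, from the marker check. The comparison and all gene lists were chosen with earlier results of these data known. Gene symbols came from the table for 15678 of 20816 identifiers and from GENCODE release M21 for 4917, and listed genes that no identifier matched were not analysed here. Some genes held by the rule or the lists are not reported here.

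Libraries of the same replicate number deviated together from their group means (correlations 0.54, 0.28 and 0.52 over the genes tested), so that a fit with the replicate number as a block is given where it changed a call. Alternatives were other pseudocounts, filters, scalings and thresholds, voom on recovered reads, and leaving out each library.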

Additional observations from a re-analysis of the deposited data

How the results depend on the processing

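The main counts were 772 higher and 547 lower genes. Without the filter 1745 genes were higher, among 20816 tested, and with a filter at 5 FPKM 222 were higher and 241 lower, among 2043 tested. Voom on recovered reads called 2019 higher and 1113 lower genes among more genes tested. After rescaling to TPM 282 genes were lower (955 higher), at an adjusted p of 0.01 165 were lower (530 higher, limma), and with the replicate number as a block, which follows the pairing seen in the deviations, 1263 were lower (1128 higher). With 1 library left out the number of higher genes ranged from 549 to 937 and that of lower genes from 194 to 1046. The lowest values came without TTP-/- replicate 2 and the highest without WT replicate 1, and the cause was not tested. Another pseudocount (1 or 0.01), no trend or a common median moved neither count by more than 1.5 times.

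Of 259 genes named or held by the naming rule, none reversed a call under any of the alternatives run, and the block ended no call and added 10. Leaving out 1 library ended 0 calls (WT replicate 1) to 42 calls (TTP-/- replicate 2), rescaling to TPM 18 and no filter 17, those of *Cst3*, *Ccl17*, *Zc3h12c*, *Socs1*, *Socs2*, *Cd80* and *Il6* among them. The precision is limited by the 3 libraries per group.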

Other observations

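Immunoglobulin genes stood out among the largest rises. Of 21 variable and constant genes tested, 19 were higher in TTP-/- cells, beside 9.92% of all genes tested, and 15 of these calls held with each library left out. The WT mean was below 0.5 FPKM in 17 of the 21, 7 of them with no read in any WT library, so that these reached the filter through the TTP-/- libraries, and of the 4 others 3 were higher. The constant genes *Ighm* (165, 132 and 184 reads in WT and 1790, 1974 and 1587 reads in TTP-/- libraries), *Igkc* (34, 30 and 27 reads against 452, 408 and 312) and *Igha* (15, 16 and 5 reads against 321, 426 and 351) were higher in all 3 TTP-/- libraries, across the classes that B cells and plasma cells use. Among variable genes *Igkv4-50* had no read in WT and 49, 23 and 46 reads in TTP-/- libraries, *Igkv5-39* had 2, 2 and 2 reads against 26, 142 and 48, and *Igkv1-110* had 14, 17 and 17 reads against 16, 17 and 7. Variable genes are close in sequence and their reads may be split or shared. The group was chosen after its values were seen.

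Over all genes tested the share with the TTP motif depended on the length of the 3' UTR. In 3' UTRs of 501 to 1000 bases 19.1% of all genes tested, 26.5% of the higher genes and 11.8% of the lower genes held TATTTAT. With 1 to 500 bases the shares were 6.96%, 8% and 3.30%, and with 1001 to 2000 bases 30.1%, 29.8% and 22.6%. At 2001 bases or more they were 52.0%, 46.6% and 53.3%. The share of higher genes was 11.2% without a copy, 10% with 1 copy, 7.22% with 2 copies and 13.8% with 3 or more. The median log2 fold change was −0.05 without a copy and −0.12 with 3 or more. The length classes were chosen with these values in view, and no test was made.

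Of 42 genes tested within 1 Mb of *Zfp36* on chromosome 7, 6 were higher and 3 lower, and within 5 Mb 18 of 113 were higher (15.9%) and 6 lower (5.31%). On the whole chromosome 13.8% were higher and 6.88% lower, beside 9.92% and 7.03% of all genes tested. The region includes *Plekhg2*, a neighbour of *Zfp36* with a log2 fold change of −0.90, and the myeloid genes *Plaur* (2.16) and *Tyrobp* (1.64).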
